A study of Mus musculus with 2 samples.

Results

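The alpha-defensin copies of the mouse Paneth cell were followed here as 10 genes: Defa3, Defa17, Defa20, Defa21, Defa22, Defa23, Defa24, Defa30, Defa32 and Defa33. A gene was taken by name, where its Ensembl identifier carries that symbol in the GENCODE annotation of the mouse genome (build GRCm38, the assembly also named mm10). All 10 were found among 43346 Ensembl gene rows, and another 29 rows carry a symbol that starts with Defa. The tissue was small intestine of C57BL/6J mice, an inbred strain, taken as adults at 8 weeks of age. Per the labels the animals were littermates of mixed sex and the material of males and females was pooled; the health state is given as unknown, and neither a treatment, a genetic change nor a segment of the intestine is named. Poly(A) RNA longer than 200 nt, cleared of ribosomal RNA, was sequenced from both ends with the strand kept, in reads of 76 nt. The 2 libraries form 1 group and are numbered biological replicates 2 and 1, from separate biosamples. Replicate 2 held 45822403 expected counts (estimated fragments per gene, which need not be whole) and replicate 1 held 45472946. With n = 2 in 1 group no test was made, and a gap between the replicates may be technical.

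Paneth cells sit at the base of the small intestinal crypts and store antimicrobial peptides in granules that they release into the crypt lumen. The alpha-defensins, called cryptdins in mice, are a large family among these peptides, short, cationic and folded by disulfide bonds. They are made as precursors that carry a signal peptide and a pro-segment, and in the mouse the protease matrilysin (Mmp7) cuts the precursor to the active peptide. Their genes lie as an array of close copies, so an RNA-seq read may match several of them.

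Each of the 10 copies has 1 annotated transcript with 2 exons, and exon 2 carries the mature peptide. By transcript identity they fell into 2 sequence classes, joined at 90% or more. The class of Defa24 holds Defa24, Defa30, Defa23, Defa3 and Defa17, with 94.9% to 99.8% identity among them. The class of Defa20 holds Defa20, Defa32, Defa33, Defa21 and Defa22, with 91.9% to 99.8%. Between the classes identity was 84.0% to 88.9%, and none of the 76-nt stretches of one class occurs in the other. The coding part of exon 2 is shown for each distinct copy because it is the sequence by which reads of the mature peptide can be told apart. It is taken from the GENCODE M21 transcripts, on the plus strand of GRCm38, 5′ to 3′. Capitals in the class of Defa24 mark the 9 positions at which its 5 copies differ, and the capital in Defa21 and Defa22 marks the 1 position at which those copies differ. The Defa3 sequence (chr8:21288174-21288280) is also that of Defa17 (chr8:21656532-21656638). The Defa20 sequence (chr8:21510028-21510140) is also that of Defa32 (chr8:21529803-21529915) and Defa33 (chr8:21392583-21392695), and has no capitals because nothing in it separates them. The others lie at chr8:21735268-21735374 (Defa24), chr8:21135394-21135500 (Defa30), chr8:21055812-21055918 (Defa23), chr8:21026314-21026420 (Defa21) and chr8:21163046-21163152 (Defa22).
Defa24: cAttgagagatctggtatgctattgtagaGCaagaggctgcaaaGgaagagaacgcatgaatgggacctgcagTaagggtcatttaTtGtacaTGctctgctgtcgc
Defa30: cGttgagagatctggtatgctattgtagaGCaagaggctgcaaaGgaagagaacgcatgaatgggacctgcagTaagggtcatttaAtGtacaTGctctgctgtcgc
Defa23: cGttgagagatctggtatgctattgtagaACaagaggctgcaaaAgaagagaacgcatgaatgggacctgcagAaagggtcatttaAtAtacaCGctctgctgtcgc
Defa3: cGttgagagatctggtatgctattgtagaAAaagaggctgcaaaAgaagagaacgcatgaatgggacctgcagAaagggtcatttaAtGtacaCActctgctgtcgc
Defa21: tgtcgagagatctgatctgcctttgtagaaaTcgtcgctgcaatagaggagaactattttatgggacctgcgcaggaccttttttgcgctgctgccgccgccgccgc
Defa22: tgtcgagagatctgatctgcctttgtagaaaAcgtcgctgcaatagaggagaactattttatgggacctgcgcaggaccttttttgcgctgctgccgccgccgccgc
Defa20: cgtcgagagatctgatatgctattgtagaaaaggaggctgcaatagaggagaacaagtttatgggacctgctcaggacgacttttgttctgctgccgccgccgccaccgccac

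**Figure D1:**
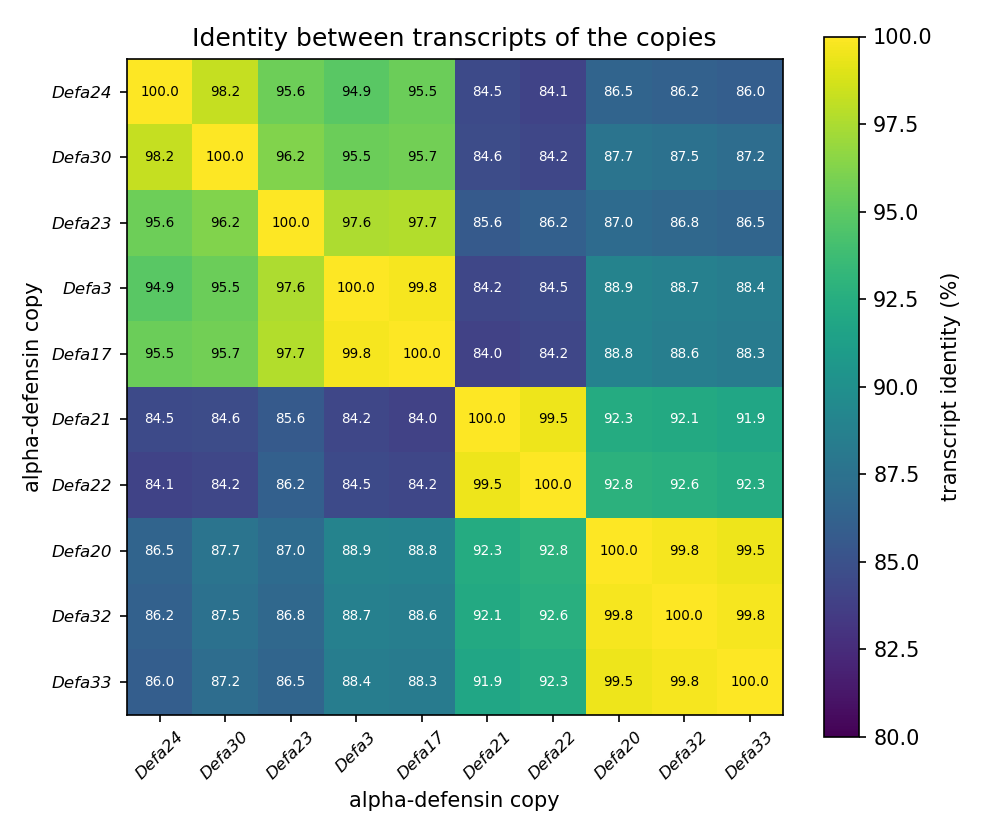
Percent identity between the annotated transcripts (GENCODE M21) of each pair of copies, with copies on both axes and the identity as colour and number. The 5 copies of the class of Defa24 share at least 94.9%, the 5 of the class of Defa20 at least 91.9%, and pairs across the classes at most 88.9%.

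Over the whole coding sequence Defa3 and Defa17 have 0 mismatches in 279 nt, and Defa20 and Defa32 have 0 in 285 nt. Defa33 differs from Defa20 at 1 position, Defa21 from Defa22 at 2, and Defa30 from Defa24 at 4. Across the classes, Defa24 differs from Defa22 at 45 positions. By identity over the whole transcript, joined at 99% or more, the copies formed 3 groups. These were Defa3 with Defa17, Defa21 with Defa22, and Defa20 with Defa32 and Defa33, while Defa23, Defa24 and Defa30 each stood alone.

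The libraries carried the RNA of Paneth cells. Levels are given in TPM, the share of a transcript in its library on a fixed total, corrected for transcript length. Besides the alpha-defensins, the markers Lyz1 (lysozyme), Itln1 (an intelectin), Ang4 (an angiogenin with antimicrobial activity) and Mmp7 were all present in both libraries. Mmp7 was the lowest of them, at 91.6 TPM in replicate 2 and 26.6 in replicate 1. Neutrophils, the other cells known for alpha-defensins in several mammals, left little RNA: 6 of their 7 markers were under 1 TPM in both libraries, and the list came to 0.13 TPM in replicate 2, against 6.27 TPM in replicate 1, most of it Camp (0 TPM in replicate 2 and 3.73 in replicate 1). In tissue RNA, fewer Paneth cells and less RNA per Paneth cell cannot be told apart.

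The 10 copies together were far more abundant in replicate 2. They summed to 25106 TPM in replicate 2, against 2914 TPM in replicate 1 (14010 ± 15693, SD, n = 2), an 8.62-fold gap. Fold gaps of copies and classes are given without correction for the median gene, itself higher in replicate 2 (0.66 on a log2 scale). Less the median gene, the gap of the sum was 2.44 on that scale. By counts they took 173113 in replicate 2, which is 0.378% of all counts (exact 95% interval 0.376% to 0.380%), and 26016 in replicate 1, which is 0.0572% (0.0565% to 0.0579%). These intervals cover counting error only. A gene without a count could still have had a share of as much as 6.55e-06% in replicate 2 or 6.6e-06% in replicate 1, taken as 3 counts. The copies held 96.6% of the TPM of all rows named Defa in replicate 2 and 94.8% in replicate 1. Alpha-defensin genes under other symbols, if any, are not in that total. The gap was not shared evenly: it was smaller in the class of Defa24 and larger in the class of Defa20.

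The class of Defa24 summed to 9261 TPM in replicate 2, against 2784 TPM in replicate 1, a 3.33-fold gap (6023 ± 4580, SD, n = 2). Its counts were 71369 in replicate 2 and 25070 in replicate 1. Within it Defa24 (ENSMUSG00000064213.5, chr8:21734494-21735471, plus strand), often used as a Paneth cell marker, led in both libraries. Defa24 had 4303 TPM in replicate 2 (deposited credibility interval 4216 to 4306) and 1062 TPM in replicate 1 (1034 to 1075), 2683 ± 2292 over both. Defa3 (ENSMUSG00000074440.3, chr8:21287409-21288377) had 2367 TPM (2309 to 2379) in replicate 2 and 770.1 TPM (744.4 to 784.0) in replicate 1, 1569 ± 1129 over both. Both copies were several-fold higher in replicate 2 in TPM, and their intervals did not touch, as was so for most genes (below). Less the median gene, the log2 ratio was 1.35 for Defa24 and 0.96 for Defa3.

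Defa23 (ENSMUSG00000074446.3, chr8:21055047-21056016) had 1698 TPM (1653 to 1711) in replicate 2 and 721.6 TPM (696.4 to 734.9) in replicate 1, 1210 ± 690 over both. This 2.35-fold gap was the smallest of the 10 copies. Defa30 (ENSMUSG00000074444.4, chr8:21134642-21135598), the copy closest to Defa24, had 800.6 TPM (772.5 to 813.5) in replicate 2 and 209.4 TPM (198.2 to 218.1) in replicate 1, 505 ± 418 over both. Defa17 (ENSMUSG00000060208.5, chr8:21655780-21656735) had 92.1 TPM (83.2 to 99.5) in replicate 2 and 20.4 TPM (16.7 to 24.0) in replicate 1, 56.2 ± 50.7 over both. Defa17 was thus a minor copy beside Defa3, with which it shares its whole coding sequence. Their counts summed to 18594 in replicate 2 and 6996 in replicate 1, a 2.66-fold gap.

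The class of Defa20 summed to 15845 TPM in replicate 2, against 129.6 TPM in replicate 1, a 122-fold gap (7988 ± 11113, SD, n = 2). Its counts were 101744 in replicate 2 and 946 in replicate 1. It therefore supplied 63.1% of the copies' TPM in replicate 2 and 4.45% in replicate 1. By counts, which carry no length correction, the shares were 58.8% (exact 95% interval 58.5% to 59.0%) in replicate 2 and 3.64% (3.41% to 3.87%) in replicate 1.

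Defa33 (ENSMUSG00000094362.1, chr8:21391811-21392791) had 7220 TPM (7050 to 7250) in replicate 2, the highest of the 10, and 60.4 TPM (51.6 to 67.4) in replicate 1, 3640 ± 5063 over both. Its place depends on its gene model. The files give its transcript 333 nt, which is the length of the 5′ UTR and coding sequence of the later model, while that later model has 426 nt. At the longer length, with its counts unchanged, its TPM would be 4000 in replicate 2 and 30.9 in replicate 1. That would make it the second highest copy of replicate 2 and the sixth of replicate 1. Its expected counts, which carry no length correction, were 32850 in replicate 2 and 299.2 in replicate 1. They were divided between the copies under the shorter model, and how the longer one would change them was not tested.

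Defa22 (ENSMUSG00000074443.1, chr8:21162277-21163249) had 3130 TPM (3057 to 3141) in replicate 2 and 28.9 TPM (25.1 to 32.5) in replicate 1, 1580 ± 2193 over both. Defa21 (ENSMUSG00000074447.2, chr8:21025545-21026516) had 3055 TPM (2984 to 3068) in replicate 2 and 31.8 TPM (27.6 to 35.4) in replicate 1, 1543 ± 2138 over both. The pair could not be ordered: their intervals overlapped each other in both libraries, the only neighbours in the order of levels for which that was so. Summed, their counts were 48959 in replicate 2 and 564 in replicate 1, an 86.8-fold gap.

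Defa20 (ENSMUSG00000095066.1, chr8:21509258-21510237) had 1950 TPM (1881 to 1982) in replicate 2 and 8.04 TPM (5.50 to 10.97) in replicate 1, 979 ± 1373 over both. Defa32 (ENSMUSG00000094818.1, chr8:21529032-21530012) had 489.3 TPM (450.9 to 517.6) in replicate 2 and 0.55 TPM (0.093 to 1.79) in replicate 1, 245 ± 346 over both. In replicate 1 Defa32 rested on 5.34 expected counts, so its 890-fold gap is a ratio to a value near the floor and its size is not resolved. The trio of Defa20, Defa32 and Defa33, whose transcripts are 99% or more identical, together had 52785 counts in replicate 2 and 382 in replicate 1, a 138-fold gap.

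**Figure D2:**
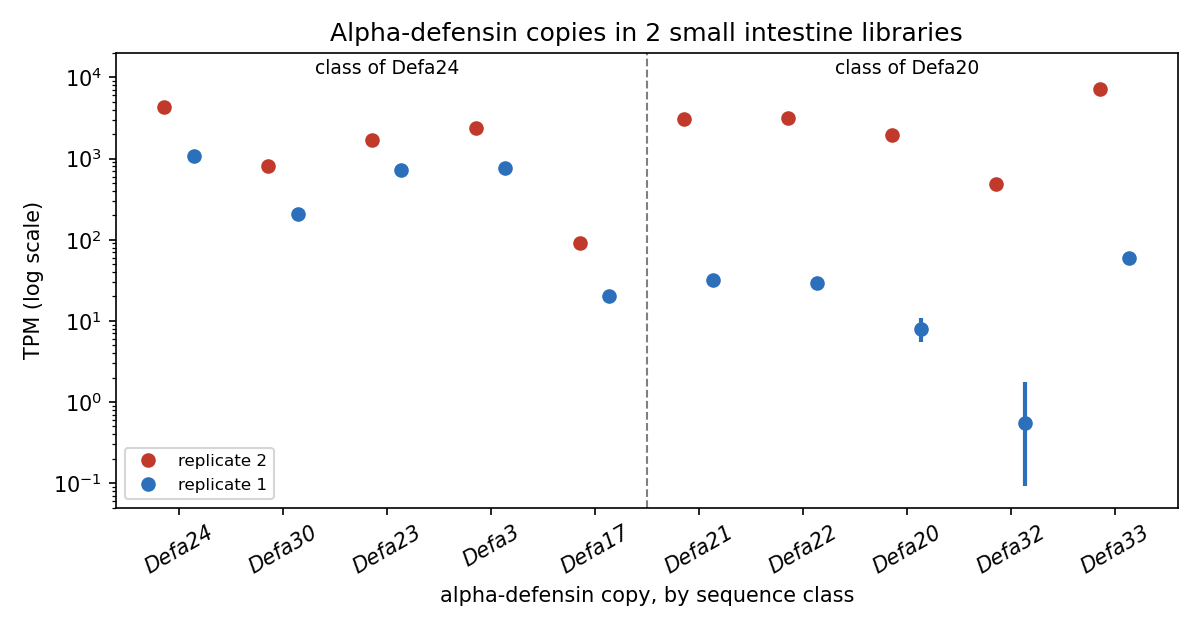
TPM of each copy (vertical log axis) in replicate 2 (red) and replicate 1 (blue), with the deposited credibility interval as a bar where it is wider than the point. All 10 copies were higher in replicate 2; the 5 of the class of Defa20 lay at 489.3 TPM or more in replicate 2 and at 60.4 TPM or less in replicate 1.

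The order of the copies therefore differed between the libraries. In replicate 2 it was Defa33, Defa24, Defa22, Defa21, Defa3, Defa20, Defa23, Defa30, Defa32 and Defa17, from high to low. In replicate 1 it was Defa24, Defa3, Defa23, Defa30, Defa33, Defa21, Defa22, Defa17, Defa20 and Defa32. Of the 5 copies of the class of Defa24, Defa17 alone lay below copies of the other class in replicate 1. The highest 3 copies held 58.4% of the copies' TPM in replicate 2 and 87.7% in replicate 1. Among all genes Defa24 ranked 24 in replicate 2 and 88 in replicate 1, and Defa33 ranked 12 in replicate 2 and 1259 in replicate 1.

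Set against all genes, the class of Defa20 stood at the edge of the distribution and the class of Defa24 did not. Here the ratio is log2 of TPM + 1 in replicate 2 over TPM + 1 in replicate 1, less the 0.66 of the median gene (of 12260 genes averaging 1 TPM or more). For low genes the added 1 TPM makes the ratio too small. In the class of Defa20 the ratios were 5.88 for Defa21, 6.05 for Defa22, 6.21 for Defa33, 7.09 for Defa20 and 7.64 for Defa32. In the class of Defa24 they were 0.57 for Defa23, 0.96 for Defa3, 1.27 for Defa30, 1.35 for Defa24 and 1.46 for Defa17. Among the 10 copies the classes did not overlap in ratio. The median of all 10, 3.67, lies between them, where none of the 10 lies, and describes neither. Over the 5926 genes averaging 10 TPM or more the median ratio was 0.15.

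All 10 copies passed that minimum of 10 TPM, though Defa20 and Defa32 did so only through replicate 2. Intervals lay apart with replicate 2 above for all 10 copies, against 84.7% of these 5926 genes, so that count is near the background. Intervals lay apart with replicate 1 above in 6.5% of these genes and overlapped in 8.81%, and no copy was among either. A ratio of at least 2-fold toward replicate 2 was found for 8 copies, all but Defa3 and Defa23, against 7.83% of genes, and none was 2-fold lower, against 5.28%. At least 32-fold was found for the 5 copies of the class of Defa20, against 0.27% of genes, or 16 genes in all. The other 11 genes at this size include none named Defa. Among 1099 genes averaging 100 TPM or more, 14 that are not named Defa had a ratio at or above the copies' median.

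**Figure D3:**
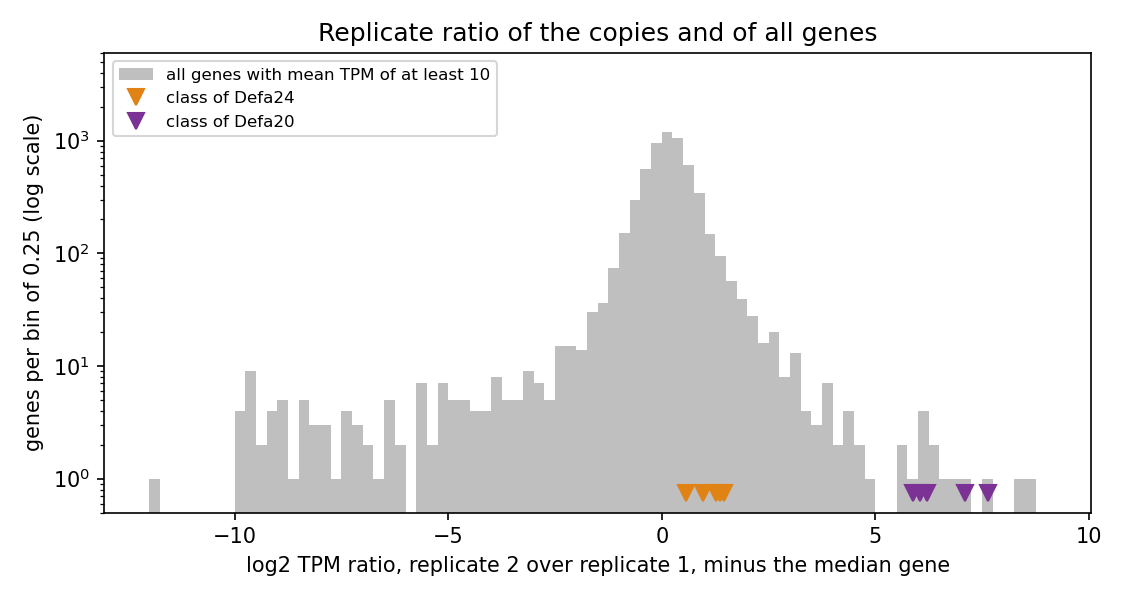
Number of genes (vertical log axis) by replicate ratio, as log2 TPM ratio of replicate 2 over replicate 1 less that of the median gene, for 5926 genes averaging 10 TPM or more in bins of 0.25, with the copies as triangles. The class of Defa24 (orange) lies at 0.57 to 1.46 and the class of Defa20 (purple) at 5.88 to 7.64.

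How well each copy was resolved was read from the posterior standard deviation of its count, the deposited measure of how uncertain the division of reads was. It is set against the square root of the count, the size of counting error. Among genes with at least 100 expected counts the median of this quotient was 0 in both libraries, so that the typical gene was given no uncertainty of this kind. It reached 1 or more in 1.24% of 11785 genes in replicate 2 and 1.27% of 11475 genes in replicate 1. It was above 0 in 11% of these genes in replicate 2 and 10.6% in replicate 1. All 10 copies reached 100 counts in replicate 2 and 8 did in replicate 1, all but Defa20 and Defa32, and each of those had a quotient above 0. The median over all 10 copies, with no minimum, was 0.44 in replicate 2 and 0.442 in replicate 1.

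Defa24 had the smallest quotient in both libraries, with a posterior SD of 1.24 counts in 34146 in replicate 2 and 2.17 in 9908 in replicate 1. Defa30 had 2.40 counts in 5691 in replicate 2 and 5.32 in 1730 in replicate 1. For these copies the uncertainty of division was small beside counting error. In their transcripts 94.2% of the 76-nt read positions of Defa24 and 80.8% of those of Defa30 occur in no other gene.

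Defa21 and Defa22 were intermediate, with a quotient of 0.443 and 0.437 in replicate 2 and of 0.398 and 0.416 in replicate 1. Their posterior SDs were nearly equal, 68.82 and 68.83 counts in replicate 2 and 6.83 for both in replicate 1. About 44.3% of the read positions of Defa21 and 44.5% of those of Defa22 occur in no other gene. A pair of reads covers more: of fragments of the mean length, 219 nt in replicate 2 and 237 nt in replicate 1, 86.0% in replicate 2 and 86.8% in replicate 1 of those of Defa21 occur in no other gene.

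In the M21 transcripts none of the 76-nt read positions of Defa20, Defa32 and Defa33 is found in 1 gene only. At the mean fragment length 10.6% of Defa20 fragments in replicate 2 and 21.2% in replicate 1 were in no other gene of that annotation. The deposited models of Defa33 (333 nt) and Defa2 (288 nt) are shorter than those of M21 (426 nt each). Sharing among the deposited models, to which the quotients belong, was not computed and may be lower. The quotient was 1.97 in replicate 2 and 1.35 in replicate 1 for Defa32, and 1.36 in replicate 2 and 1.18 in replicate 1 for Defa20. For these copies, then, the uncertainty from dividing reads exceeded counting error in both libraries. For Defa33 it was 0.834 in replicate 2 and 0.629 in replicate 1. The posterior SD of Defa32 was 3.12% of its count in replicate 2 and 50.2% in replicate 1.

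Defa3, Defa17 and Defa23 shared most of their sequence with another gene, and their quotients were uneven. Defa17 had 0.600 in replicate 2 and 0.664 in replicate 1, with 8.70% of its read positions in no other gene. Defa3 had 0.117 in replicate 2 and 0.439 in replicate 1, with 12.2% of positions its own. Defa23 had 0.0249 in replicate 2 and 0.445 in replicate 1, although 89.9% of its read positions occur in Defa31 too, whose annotated transcript of 377 nt matches that of Defa23 without a mismatch. Defa31 was listed at 0 counts in both libraries. In the same way 78.0% of the positions of Defa20 occur in Defa2, also at 0 counts in both, whose transcript has 288 nt in the files and 426 nt in the later annotation. The posterior SD does not cover an error in the gene models themselves.

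**Figure D4:**
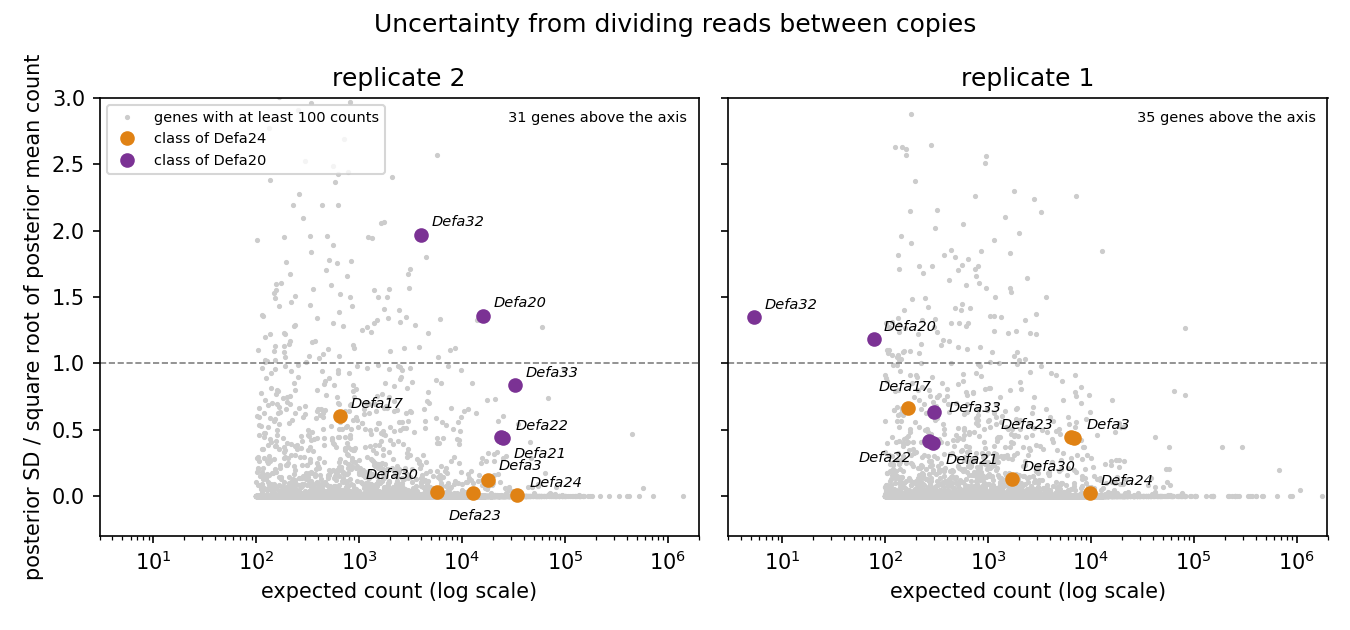
Posterior standard deviation of the count over the square root of the count (vertical axis) against expected count (log axis) in each library, with all genes of at least 100 counts in grey; the dashed line marks 1. Defa32 and Defa20 lie above the line in both libraries, and Defa24 lies near 0 in both. Genes above the axis number 31 in replicate 2 and 35 in replicate 1.

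The contrast of the classes rests on their summed reads, and no 76-nt read position of the M21 transcripts is shared between the classes by exact match. Reads with mismatches were not considered, and assignment of reads between the classes was not tested. All 5 copies of the class of Defa20 had ratios above all 5 of the class of Defa24 under each of 10 other settings of scale, pseudocount and unit. The lowest ratio in the class of Defa20 was then between 5.26 and 6.54, and the highest in the class of Defa24 between 1.31 and 2.13.

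The classes are not separate blocks of the genome. All 10 genes lie on the plus strand of chromosome 8 within 709.9 kb, in 21025545 to 21735471 (GRCm38). From Defa21 at the left end, Defa23 starts 29.5 kb on, Defa30 at 109 kb, Defa22 at 137 kb, Defa3 at 262 kb, Defa33 at 366 kb, Defa20 at 484 kb, Defa32 at 503 kb, Defa17 at 630 kb and Defa24 at 709 kb. Copies of the class of Defa20 are thus interleaved with those of the class of Defa24 along the array. Defa21, with a 96.2-fold gap between the libraries, is the neighbour of Defa23, with a 2.35-fold gap.

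**Figure D5:**
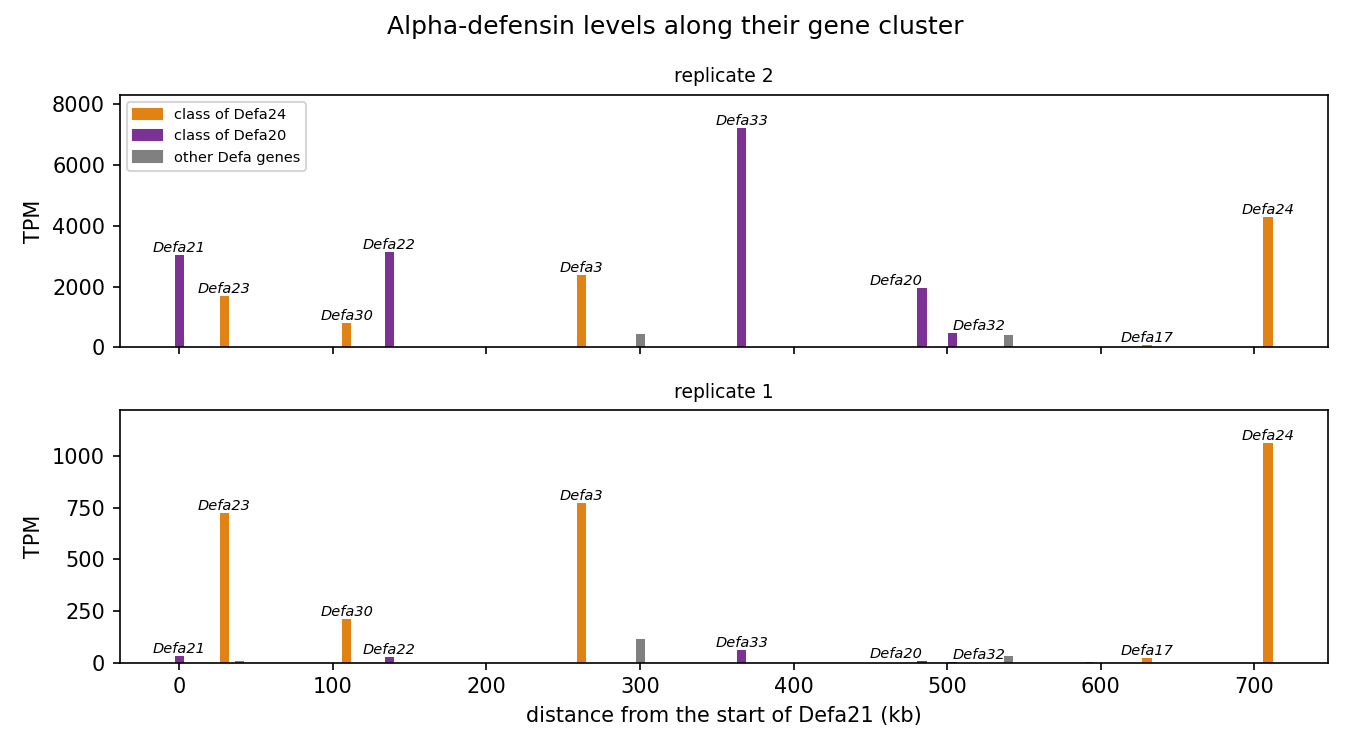
TPM of the copies by the distance of their start from that of Defa21 (kb), in replicate 2 (upper) and replicate 1 (lower), with other protein-coding Defa genes of the array in grey; the vertical scales differ. Tall bars of both classes stand side by side along the array in replicate 2, and the tallest bars of replicate 1, Defa24, Defa3, Defa23 and Defa30, are all of the class of Defa24.

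The sequence before the start of transcription was compared because the classes differ in level between the libraries. RefSeq promoter sequences (GRCm38.p6) were at hand for 6 of the 10 copies, namely Defa20, Defa21, Defa22, Defa23, Defa30 and Defa32. Over the 250 nt before the start, Defa20 and Defa32 were identical where aligned, as were Defa21 and Defa22, and Defa20 shared 98.0% with Defa21. Defa20 shared 80.9% with Defa23 and 76.8% with Defa30, while Defa23 and Defa30 shared 90.9%. The upstream sequences thus divide by the same classes as the transcripts. The stretch from 160 to 11 bases before the annotated start is shown for 1 copy of each kind, on the plus strand, 5′ to 3′. Capitals mark ATCAAAG, a core bound by the TCF/LEF factors of Wnt signalling, which drives Paneth cell maturation, and TATAAA, the core of a TATA box. The stretches are chr8:21509098-21509247 (Defa20), chr8:21025385-21025534 (Defa21), chr8:21054880-21055029 (Defa23) and chr8:21134490-21134639 (Defa30).
Defa20: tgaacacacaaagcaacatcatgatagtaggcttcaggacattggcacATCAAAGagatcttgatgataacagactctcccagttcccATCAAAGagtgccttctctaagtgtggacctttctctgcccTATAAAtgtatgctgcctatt
Defa21: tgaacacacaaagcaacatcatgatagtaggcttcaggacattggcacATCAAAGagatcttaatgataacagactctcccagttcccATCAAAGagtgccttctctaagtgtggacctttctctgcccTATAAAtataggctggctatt
Defa23: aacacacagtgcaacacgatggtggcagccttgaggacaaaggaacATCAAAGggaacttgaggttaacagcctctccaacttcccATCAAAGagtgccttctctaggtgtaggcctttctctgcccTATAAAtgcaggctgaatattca
Defa30: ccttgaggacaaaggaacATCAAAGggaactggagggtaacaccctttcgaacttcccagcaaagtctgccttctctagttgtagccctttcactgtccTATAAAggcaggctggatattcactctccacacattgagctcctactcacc

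ATCAAAG, searched on both strands of the 250 nt, occurred 2 times before Defa20, Defa21, Defa22, Defa32 and Defa23 and 1 time before Defa30, each time on the plus strand. It started 112 and 72 bases before the start in Defa20, 114 and 74 in Defa23, and 142 in Defa30. Over 32851 promoters of the same length 3.21% held it and 0.0822% held it 2 or more times. TATAAA occurred 1 time in each of the 6, 31 bases before the start in Defa20, 33 in Defa23 and 61 in Defa30, and was held by 12.4% of all promoters. The annotated starts therefore lie at different distances from TATAAA, so positions counted from the start of Defa30 do not line up with those of the others. In the printed stretches, the bases on both sides of the ATCAAAG of Defa30 are those around the ATCAAAG of Defa23 at 114. Where Defa23 has ATCAAAG at 74, Defa30 reads agcaaag. A doubled ATCAAAG was thus found in copies of both classes, those with gaps of 96.2-fold and more and Defa23 with 2.35-fold. Such a match is a description of the sequence and not evidence of binding.

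The other Defa rows were mostly listed at 0. Alpha-defensin genes under symbols that do not start with Defa were not searched for. Of the 12 that are protein-coding, 5 were listed at 0 counts in both libraries, as were 15 of the 17 pseudogenes. A mean of at least 10 TPM was reached by 4. Defa29 had 428.4 TPM in replicate 2 and 115.1 in replicate 1, a ratio of 1.22. Defa37 had 405.1 TPM in replicate 2 and 31.7 in replicate 1, a ratio of 2.97, Defa26 had 22.4 TPM in replicate 2 and 4.39 in replicate 1 (1.45), and Defa5 had 20.6 TPM in replicate 2 and 0.39 in replicate 1 (3.29). By sequence Defa37 and Defa5 are closest to Defa20, at 90.3% and 90.7%, and Defa26 to Defa17, at 91.4%. The ratio of Defa37 lay between those of the classes. Defa5 rested on 2.77 expected counts in replicate 1, so the added 1 TPM sets its ratio and its place is not resolved. Defa35, also closest to Defa20 (90.2%) and named after its values were seen, ran the other way, with 1.57 TPM in replicate 2 and 7.10 in replicate 1 (-2.32). Defa37, Defa5 and Defa35 thus also meet the 90% cut of the class of Defa20, and Defa26 meets that of the class of Defa24. The separation of the classes in ratio was found for the 10 copies. It did not hold for every gene that meets the cut.

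The genes listed for alpha-defensin processing mostly lay near the median gene. In tissue RNA the cells that made these transcripts cannot be told apart. The list holds 11 genes of the signal peptidase, translocon, protein disulfide isomerase, convertase and thioredoxin families with Mmp7, and came to 1742 TPM in replicate 2, against 1316 TPM in replicate 1. Of these, 1 was at least 2-fold higher in replicate 2 relative to the median gene and 1 lower, against 7.83% and 5.28% of genes averaging 10 TPM or more, as all 11 did, and the median ratio was -0.15, beside 0.15 over all those genes. The higher one was Mmp7, which activates the precursors, with 91.6 TPM in replicate 2 and 26.6 in replicate 1 (1.08). The lower was Sec11c, a catalytic subunit of the signal peptidase, with 41.6 TPM in replicate 2 and 68.9 in replicate 1 (-1.38). Txn1, the thioredoxin that reduces disulfide bonds, had 148.0 TPM in replicate 2 and 54.1 in replicate 1 (0.77), and Pdia3, a disulfide isomerase, had 907.6 TPM in replicate 2 and 753.5 in replicate 1 (-0.40).

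Regulators of the Paneth lineage also lay near the median gene. Of 15 listed, 14 had a mean of at least 1 TPM; none was 2-fold higher in replicate 2, against 5.03% of all genes at that minimum, and 1 was lower, against 6.32%. The median ratio was -0.10. Tcf7l2, a TCF factor of the Wnt pathway, had 42.2 TPM in replicate 2 and 15.8 in replicate 1 (0.70), and Fzd5, a Wnt receptor needed for Paneth cell maturation in the mouse, had 108.5 TPM in replicate 2 and 41.2 in replicate 1 (0.71). Sox9, a factor needed for Paneth cells to form, had 20.9 TPM in replicate 2 and 20.0 in replicate 1 (-0.61), and its intervals overlapped. Atoh1, the secretory lineage factor, had 22.3 TPM in replicate 2 and 6.69 in replicate 1 (0.94). The lower one, Bhlha15, a factor of secretory cells that the pancreas also expresses strongly, had 8.94 TPM in replicate 2 and 17.1 in replicate 1 (-1.53).

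Other products of Paneth cells were nearer to the class of Defa24 than to the class of Defa20. Of the 11 of 13 with a mean of at least 1 TPM, 5 were at least 2-fold higher in replicate 2 relative to the median gene and 1 lower, with a median ratio of 0.63. Over all 12260 genes averaging 1 TPM or more, 5.03% were 2-fold higher and 6.32% lower, and the median ratio is 0 by centring. Lyz1 had 2627 TPM in replicate 2 and 650.4 in replicate 1 (1.35), the same ratio as Defa24. Itln1 had 2416 TPM in replicate 2 and 453.8 in replicate 1 (1.75), and Guca2b, a uroguanylin, had 1685 TPM in replicate 2 and 337.2 in replicate 1 (1.65). Ang4 had 381.4 TPM in replicate 2 and 37.5 in replicate 1 (2.65), the largest ratio of this list and still below each copy of the class of Defa20. Pla2g2a, a gene named for a secreted phospholipase, had 19.6 TPM in replicate 2 and 3.04 in replicate 1 (1.68). Whether its RNA gives an active enzyme in this strain cannot be read from these data. Reg3g, a bactericidal lectin that enterocytes make too, ran the other way, with 322.4 TPM in replicate 2 and 1037 in replicate 1 (-2.35). Whether the classes differ from this list was not tested.

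Markers of other tissues, gut segments and cell types differed between the libraries too. The 18 markers of the exocrine pancreas came to 1796 TPM in replicate 2, against 273963 TPM in replicate 1, and the 11 of the stomach to 52.6 TPM in replicate 2 and 20134 in replicate 1. Among markers of the distal small intestine, 6 of 9 with a mean of at least 1 TPM were 2-fold higher in replicate 2 and none lower, against 5.03% and 6.32% of all genes at that minimum, with a median ratio of 1.47. Cubn, an ileal receptor, had 24.3 TPM in replicate 2 and 0.20 in replicate 1, and Fabp6, the ileal bile acid binding protein, 4.95 TPM in replicate 2 and 0.08 in replicate 1. Among markers of the proximal small intestine, 7 of 12 were 2-fold lower in replicate 2 and 1 higher, with a median of -2.00, and Pdx1, a factor of duodenum and pancreas, had 0.12 TPM in replicate 2 and 25.3 in replicate 1. Of 6 goblet cell markers 2 were higher and none lower (median 0.47), and of 6 enterocyte markers 5 were higher and 1 lower (1.67). The pancreas and stomach lists and most proximal markers thus ran against the copies between the same libraries. Most distal and enterocyte markers and 2 goblet cell markers ran with the copies. The part of any of these lists in the gap of either class was not tested.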

How the data were processed

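Per the labels, 2 libraries of 1 group were sequenced. Aligner and quantifier: not given in the sources used here. RSEM writes columns of these names. The deposited text names mm10 and annotation M4, per the submitters' processing notes. The deposited gene tables hold expected counts, TPM and FPKM with posterior means, the posterior SD of the count, and the bounds of a credibility interval whose level is not stated. The deposited bounds were read as a signal on the TPM or FPKM scale, and the percent of a gene's TPM from each transcript came from the deposited transcript tables. Names, transcripts and coordinates came from GENCODE M21, by the stable part of the identifier (42462 genes, 98.0%), with 9 of 10 members in the same version; read sharing was computed on M21 transcripts.

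Computed here, with Python 3.11.15, pandas 2.3.3 and Biopython 1.88, were sums, shares, exact (Clopper-Pearson) intervals at 95%, a floor of 3 counts, ratios with a pseudocount of 1 TPM, pairwise identity (global alignment, match 2, mismatch -1, gap opening -3 and extension -0.5) and read sharing over exact 76-nt and fragment-length matches. edgeR 4.0.16 and DESeq2 1.42.0 gave only scaling factors, on expected counts rounded to whole numbers. The ratio step was tested on simulated data. The text names all members, other Defa genes averaging 10 TPM or more, and genes of the 3 Paneth lists; marker genes of other lists and Defa2, Defa31 and Defa35 were named after their values were seen. The members, the lists and the sequence classes were chosen with earlier results of these data known. Other scalings, pseudocounts, units and gene lengths were tried.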

Additional observations from a re-analysis of the deposited data

How the results depend on the processing

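The median ratio of the copies, 3.67, was 3.48 with a pseudocount of 10 TPM, 4.33 without centring, 4.01 when centred on all genes with a count and 4.03 when scaled to the spike-ins. All 100 member ratios under 10 alternatives kept their positive sign. The median relative posterior SD was 1.35% of the count as a mean of both libraries. The width of the TPM interval or of the FPKM interval, taken in its place, came to 14.2% (14.22 for each). A width is another quantity than an SD, and the intervals cover counting as well as the division of reads. Leaving out a replicate leaves the other library's value: 2914 to 25106 for the summed TPM, 2.07% to 28.8% for Defa33, the copy with the highest mean, 2.36% to 32.4% for Defa20, Defa21 and Defa22 together, 4.45% to 63.1% for the class of Defa20, and 0.281% to 2.43% for the posterior SD. At the longer gene model, with its counts unchanged, Defa33 held 9.67% of the copies' TPM as a mean of both libraries, against 15.4% at the deposited length. The gene model, class and 99% groupings were added after the data were seen. All 10 copies kept separate intervals under the 3 alternatives to the bounds. No paired analysis was possible because the libraries form 1 group.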
